A study of Mus musculus with 2 samples.

Results

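Accessible chromatin was described at 50 protein-coding genes of the BMP and TGF-beta pathways, out of 21887 protein-coding mouse genes. The members were chosen by symbol: the Bmp, Gdf, Tgfb, Tgfbr and Smad genes with a number, the inhibin and activin subunit and receptor genes, and the antagonists Nog, Chrd and Fst. Symbols place Bmp1 and Bmp2k in the set, although Bmp1 is a procollagen protease and Bmp2k a kinase that BMP2 induces. The cells came from C57/Bl6 mouse embryos that carry the Hb9::GFP transgene, were taken at embryonic day 10.5, and were purified for GFP by FACS. The labels call them spinal motor neurons. They were assayed by ATAC-seq, in which the Tn5 transposase cuts and tags open DNA. The Hb9 promoter, which drives the reporter, is that of the homeobox gene Mnx1, active in motor neurons. The labels give 1 group of 2 replicates, without a second tissue or stage. The replicates were pooled in 1 peak list, which leaves every value without an error between replicates and allows no comparison of conditions.

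Each entry of the list is a summit of accessibility with its interval, its fold over the local background and its significance. Reads are the overlapping reads or fragments at the summit, recovered from the deposited fold and p-value, and fold and −log10 q are the authors' values. An entry was assigned to a gene when its summit lay in the gene's span, or within 100 kb with that gene's end the nearest protein-coding end. By this rule the 50 genes held 482 of the 137849 entries on the chromosomes. A gene-end entry has its summit within 1 kb of either end of the span. A start entry has it within 1 kb of an annotated transcription start, which could be asked of the 35 members that have a promoter in the RefSeq table. A gene without an entry is below the caller's limit and is not shown to be closed. The fewest reads of any entry were 11, but the limit rises with the local background. An entry of Gdf11 with 35 reads over a background of 23.1 had a −log10 p of only 2.11. Coordinates are mm10, counted from 1.

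Ligands of this family are secreted dimers that bind type I and type II receptors, which are serine-threonine kinases. The type II receptor activates the type I receptor, which phosphorylates receptor-regulated Smads. These join Smad4 and enter the nucleus, while Smad6 and Smad7 hold the pathway back. In the neural tube, BMPs and Gdf7 from the roof plate and the overlying ectoderm pattern dorsal cell types, and Noggin, Chordin and Follistatin bind ligands outside the cell.

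Promoter sequences of 7 members are printed as examples. They are RefSeq windows of the GRCm38.p6 build, from 250 bases before to 50 bases after the start, printed 5′ to 3′ on the gene's strand. The 6 shown before Bmp5 had a promoter entry among the 4 with most reads or belonged to the 3 genes with most entries. Bmp5 was chosen after its values were seen, as a start with no entry within 1 kb. Capitals mark matches on either strand to the word GGCGCC, to the word GGAGCC or to the word CAGACA, which Smads are known to bind. The windows lie at chr2:48813859-48814158 on the plus strand (Acvr2a), chr4:47352972-47353271 on the plus strand (Tgfbr1) and chr5:96997439-96997738 on the plus strand (Bmp2k). Those of Acvr2b, chr9:119401928-119402227, and Bmp5, chr9:75775115-75775414, lie on the plus strand too. Those of Smad6, chr9:64022010-64022309, and of an internal start of Bmpr1b, chr3:141931371-141931670, lie on the minus strand.
Acvr2a: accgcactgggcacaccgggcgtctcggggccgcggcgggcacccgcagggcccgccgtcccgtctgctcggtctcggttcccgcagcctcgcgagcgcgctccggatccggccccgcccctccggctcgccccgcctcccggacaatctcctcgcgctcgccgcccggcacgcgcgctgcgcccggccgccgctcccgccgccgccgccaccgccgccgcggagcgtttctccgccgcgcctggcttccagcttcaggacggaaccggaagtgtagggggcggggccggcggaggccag
Tgfbr1: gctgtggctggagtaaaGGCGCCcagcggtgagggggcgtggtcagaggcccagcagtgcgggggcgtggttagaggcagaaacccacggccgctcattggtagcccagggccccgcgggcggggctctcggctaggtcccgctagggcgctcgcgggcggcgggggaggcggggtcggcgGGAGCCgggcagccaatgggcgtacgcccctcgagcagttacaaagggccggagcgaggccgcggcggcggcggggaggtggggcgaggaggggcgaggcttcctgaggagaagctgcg
Bmp2k: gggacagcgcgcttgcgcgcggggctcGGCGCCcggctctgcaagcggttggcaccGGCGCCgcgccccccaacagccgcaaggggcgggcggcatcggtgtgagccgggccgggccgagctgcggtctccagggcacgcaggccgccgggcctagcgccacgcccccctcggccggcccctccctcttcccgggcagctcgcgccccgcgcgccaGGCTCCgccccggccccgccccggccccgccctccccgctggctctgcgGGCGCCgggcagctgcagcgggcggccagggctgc
Acvr2b: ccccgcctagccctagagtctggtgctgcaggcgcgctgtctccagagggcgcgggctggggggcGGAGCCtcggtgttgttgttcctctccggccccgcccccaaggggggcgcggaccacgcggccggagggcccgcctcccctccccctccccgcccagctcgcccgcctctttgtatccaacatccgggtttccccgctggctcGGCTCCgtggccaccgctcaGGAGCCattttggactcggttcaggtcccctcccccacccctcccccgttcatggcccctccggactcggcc
Smad6: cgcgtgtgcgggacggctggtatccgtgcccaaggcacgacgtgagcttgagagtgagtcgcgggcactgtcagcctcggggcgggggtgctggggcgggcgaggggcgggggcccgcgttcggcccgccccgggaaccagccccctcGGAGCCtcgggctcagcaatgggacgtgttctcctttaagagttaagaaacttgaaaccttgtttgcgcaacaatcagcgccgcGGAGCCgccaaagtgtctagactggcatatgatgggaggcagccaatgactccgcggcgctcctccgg
Bmpr1b: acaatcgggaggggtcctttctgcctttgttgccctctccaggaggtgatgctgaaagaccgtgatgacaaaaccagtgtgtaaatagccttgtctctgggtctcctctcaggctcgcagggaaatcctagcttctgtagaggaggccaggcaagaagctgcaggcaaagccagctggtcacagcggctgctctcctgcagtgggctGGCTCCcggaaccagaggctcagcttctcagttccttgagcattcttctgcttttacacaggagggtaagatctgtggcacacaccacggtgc
Bmp5: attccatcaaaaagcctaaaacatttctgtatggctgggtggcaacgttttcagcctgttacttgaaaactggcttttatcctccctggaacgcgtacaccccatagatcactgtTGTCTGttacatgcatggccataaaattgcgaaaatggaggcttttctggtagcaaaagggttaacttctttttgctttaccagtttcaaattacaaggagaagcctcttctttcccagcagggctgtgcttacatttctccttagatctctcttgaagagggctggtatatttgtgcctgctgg

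The Acvr2a window held 54 CpG dinucleotides and no Smad-type word, and its summit of 241 reads lay at base 143 from the 5′ end. The Tgfbr1 window held 34 CpG and 2 such words, with its summit of 205 reads at base 244. In Bmp2k there were 45 CpG and 4 words, with 202 reads at base 194. Acvr2b had 27 CpG and 3 words, with 155 reads at base 75. Smad6 had 31 CpG and 2 words, with 98 reads at base 209. The Bmpr1b window held 6 CpG and 1 word, yet its summit, at base 47 and 204 bp upstream of the transcription start, had 154 reads. The Bmp5 window held 4 CpG and 1 word.

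Every member had an assigned entry, as did 83.0% of all protein-coding genes. The members held a median of 8 entries (range 1 to 29), against 3 over all genes, and 22 of 50 had 10 or more, against 16.4% of all genes. Their territories, the sequence from which a gene can receive entries, were longer, with a median of 112 kb against 49.6 kb. Per 100 kb of territory the medians were 7.89 entries for the members and 6.0 for all genes. Entry numbers were correlated with territory over the 50 members (Spearman's rho 0.79) and over all genes (rho 0.57), a description across genes, which are not independent replicates. Gene-end entries were found at 40 of 50 members, against 65.5% of all genes. The highest of each of the 40 had a median of 92 reads and 7.37-fold, against 97 reads and 8.16-fold over all genes with one. It exceeded the all-gene median of reads in 19 of 40 (47.5%), as it did in 49.6% of all genes with one. No test was made of these differences, since genes are not replicates and the members share families and neighbourhoods.

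**Figure D1:**
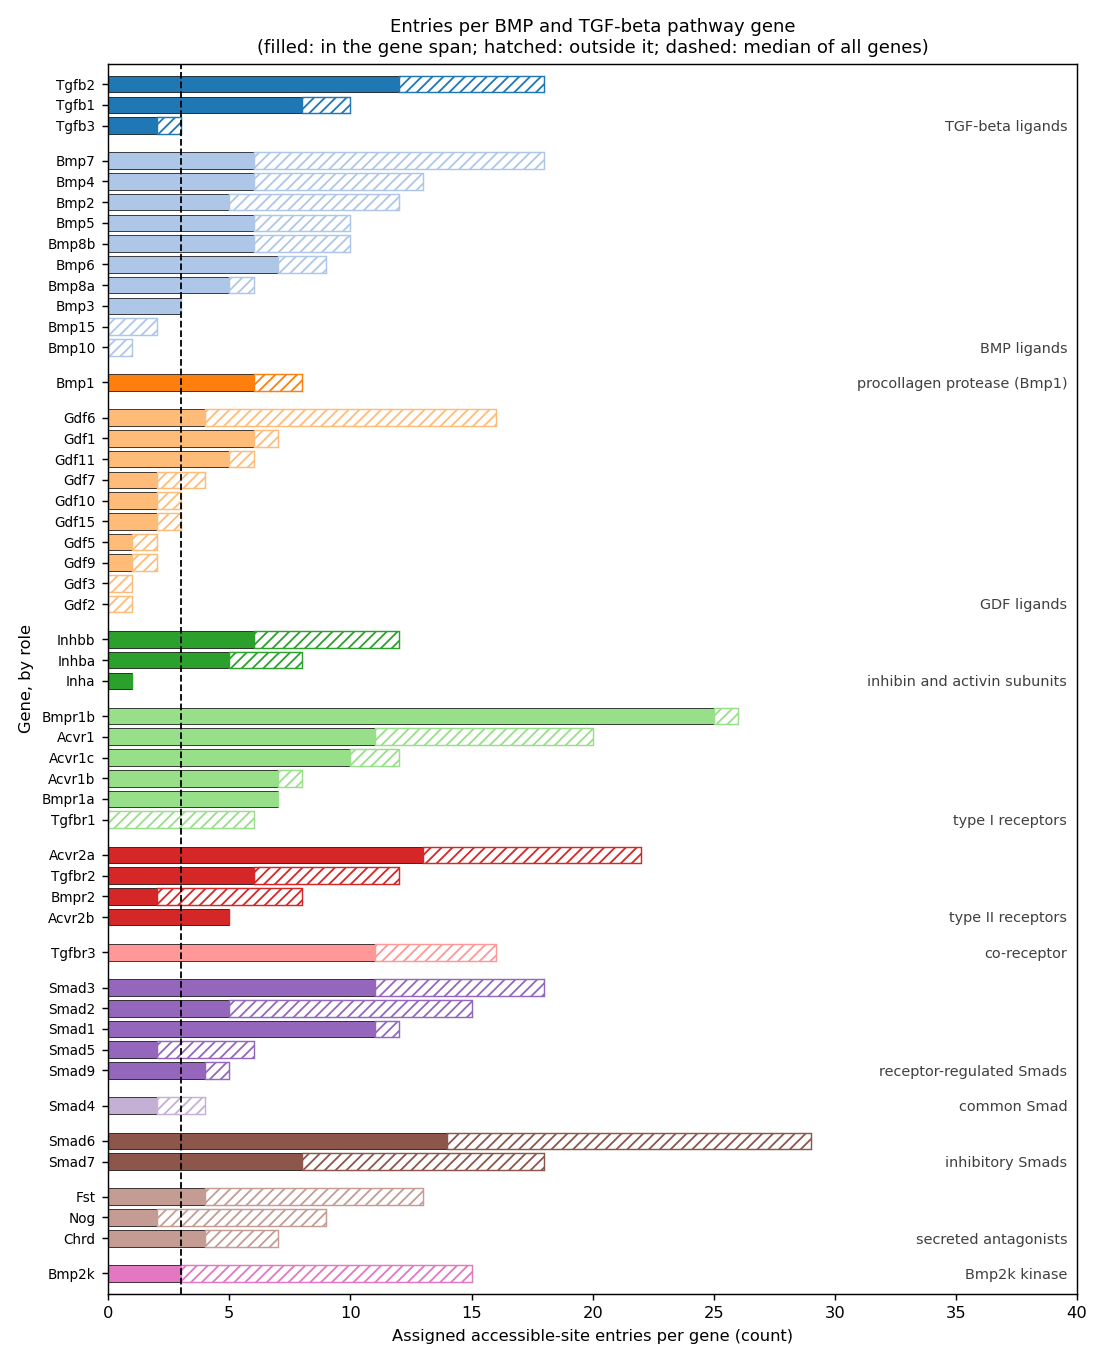
Number of accessible-site entries assigned to each gene (x axis, count), with genes down the page by role; filled bars lie in the gene span, hatched bars outside it, and the dashed line is the median of 3 over all protein-coding genes. Smad6 (29), Bmpr1b (26), Acvr2a (22) and Acvr1 (20) had the most, and Bmp10, Gdf2, Gdf3 and Inha had 1 each.

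This order rests in part on weak entries. In the more significant 50% of entries by −log10 q, Bmpr1b (12) and Bmp2k (11) had the most, Acvr1 had 10, Smad6 9 and Acvr2a 3. Of the 20 entries of Acvr1, 11 lay in its own span, and the 9 outside it lay inside the neighbouring gene Upp2.

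Of the 482 entries, 203 lay inside the genes away from their ends, 165 between genes and 98 at the members' own ends. The other 16 lay inside other genes (10) or at ends of other genes (6). Gene-end entries had a median of 4.77-fold and 73 reads, those inside the genes 2.67-fold and 25 reads, and those between genes 2.83-fold and 19 reads. The members' entries ranged from 11 to 241 reads with a median of 26, against 24 over the whole list. A q-value of 0.05 or more was attached to 92 of the 482 (19.1%), against 17.7% of the whole list.

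Of the role groups with several genes, the receptor kinases had the highest median of reads at their ends. All 10 type I and type II receptors had a gene-end entry, with a median of 143 reads and 9.97-fold for the highest of each gene. Over all genes with such an entry the median was 97 reads and 8.16-fold. In 8 of the 10 receptors the highest entry was above 97 reads, which 49.6% of all genes with a gene-end entry exceeded. All 10 also had a start entry, Bmpr1b only at internal starts, and 66.5% of the 17492 genes in the promoter table had one. Apart from Bmpr1b, the most upstream annotated starts of the receptors had 15 to 54 CpG in their 300-base windows. Of all genes with 10 to 24 CpG there, 94.8% had a start entry, and of those with 25 or more, 99.6%.

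Among type II receptors, Acvr2a, a receptor for activins and several BMPs, had the highest end of the whole set, with 241 reads and 11.5-fold (−log10 q 162) at chromosome 2, 48813392 to 48814991. Only 2.06% of genes with a gene-end entry had as many reads. Its summit lay 108 bp upstream of the start, and the other 21 entries of the gene had at most 45 reads. Bmpr2, the BMP type II receptor, had 164 reads and 8.92-fold (−log10 q 94.7) at chromosome 1, 59762560 to 59764183, 837 bp upstream of its annotated start, and 139 reads in the same interval 1063 bp upstream. Acvr2b, the second activin type II receptor, had 155 reads and 8.77-fold (−log10 q 88.5) at chromosome 9, 119401679 to 119403239. Tgfbr2, which binds the TGF-beta ligands, was the lowest of the 4 with 64 reads and 7.93-fold at chromosome 9, 116174434 to 116175607, over a background of 7.19 reads.

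Among type I receptors, Tgfbr1, the partner of Tgfbr2, led with 205 reads and 10.5-fold (−log10 q 131) at chromosome 4, 47352720 to 47353937, 7 bp upstream of its start. No summit lay within its span, although the interval at the start reaches into it. The strongest of its 5 other entries had 92 reads 23.0 kb beyond the far end. Acvr1, a BMP type I receptor, had 169 reads and 9.74-fold (−log10 q 104) at chromosome 2, 58566512 to 58567706. That summit lay 524 bp upstream of the Acvr1 start, inside the neighbouring gene Upp2. Bmpr1a, a main BMP type I receptor, had 131 reads and 8.19-fold (−log10 q 71.6) at chromosome 14, 34501967 to 34503448. Acvr1b, the activin type I receptor, had 127 reads and 10.2-fold. Acvr1c, which transduces Nodal and activin B signals, had 93 reads, but 11.6-fold, over a background of 7.13 reads, the lowest of the 6.

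**Figure D2:**
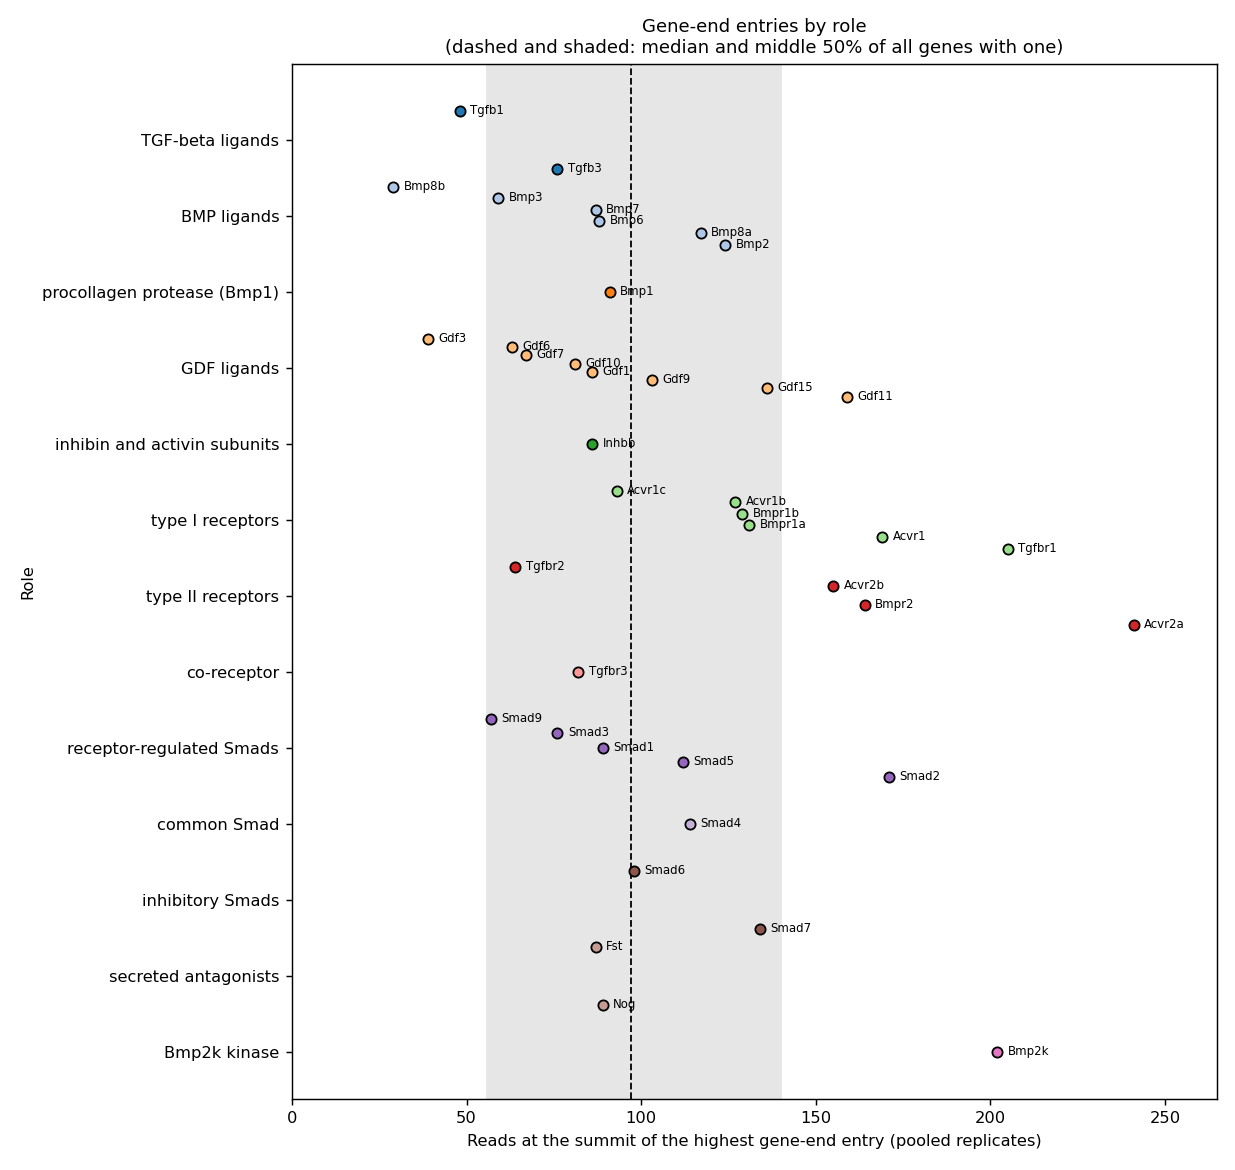
Reads at the summit of each gene's highest gene-end entry (x axis, pooled replicates), by role down the page; each point is 1 gene, the dashed line is the median of 97 reads over all genes with a gene-end entry, and the shaded band is their middle 50% (56 to 140 reads). Acvr2a (241), Tgfbr1 (205) and Bmp2k (202) lie farthest to the right, and Bmp8b (29) and Gdf3 (39) farthest to the left.

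Bmpr1b, the other BMP type I receptor and the longest member at 332451 bp, had 25 of its 26 entries inside the gene. At its upstream end an entry of 129 reads and 11.1-fold (−log10 q 87.2) lay at chromosome 3, 142168593 to 142169671. The highest had 154 reads and 10.7-fold (−log10 q 100.5) at chromosome 3, 141931232 to 141931985. It lay 36 bp upstream of an annotated internal start, and 204 bp upstream of the internal start whose window is printed above. An entry of 149 reads and 11.5-fold (−log10 q 102) lay 58.9 kb downstream of the nearest annotated start at chromosome 3, 141872049 to 141873066. The gene had a further internal entry of 69 reads and 11-fold (−log10 q 48.4) at chromosome 3, 142003193 to 142003515. Its only entry outside the gene, 22.2 kb away at chromosome 3, 142191526 to 142191883, had 62 reads and 9.41-fold (−log10 q 39.3). Thus 3 sites within 1 gene had between 129 and 154 reads. Acvr1c showed a similar pair: 93 reads at its upstream start, and 89 reads and 11.5-fold (−log10 q 62.9) at chromosome 2, 58324264 to 58325130, 23 bp from a start 33.1 kb into the span. The same interval held a second summit of 71 reads and 9.15-fold (−log10 q 43.6). The window of that internal start held 2 CpG and that of the upstream start 39.

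Tgfbr3, or betaglycan, a co-receptor that presents TGF-beta ligands and inhibin, had 16 entries. Its end had 82 reads and 7.41-fold (−log10 q 42.4) at chromosome 5, 107288538 to 107289773, and an internal entry had 55 reads and 8.80-fold (−log10 q 36.3) at chromosome 5, 107148167 to 107148614.

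The 8 Smads all had a gene-end entry, against 65.5% of all genes. Its median was 105 reads against 97, but 7.03-fold against 8.16, over a median background of 13.5 reads against 10.7. The median Smad had 13.5 assigned entries, against 3 over all genes, in a territory of 144 kb against 49.6 kb. Per 100 kb the medians were 8.29 and 6.0 entries. Among Smads that relay BMP signals, Smad5 had 112 reads and 9.20-fold (−log10 q 67.1) at chromosome 13, 56702541 to 56703716. Smad1 had 89 reads and 6.85-fold (−log10 q 43) at chromosome 8, 79397917 to 79399810, and Smad9 had 57 reads and 7.21-fold. Smad9 also had the fewest entries of these 3, with 5 against 12 at Smad1 and 6 at Smad5. Among those that relay TGF-beta and activin signals, Smad2 had 171 reads and 9.11-fold (−log10 q 100.1) at chromosome 18, 76240926 to 76242647, and Smad3 had 76 reads and 5.26-fold (−log10 q 29) at chromosome 9, 63757029 to 63758739. Smad4, the shared partner, had 114 reads and 7.97-fold (−log10 q 61.4) at chromosome 18, 73702983 to 73704301, but 4 entries in all.

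The highest fold of all 482 entries belonged to a site 54.9 kb beyond Smad2, between genes at chromosome 18, 76366550 to 76366840. It had 14.6-fold, 92 reads and a −log10 q of 75.2, in an interval of 291 bp. Its background of 5.37 reads was at the lowest level of the list. A second site 18.5 kb from the other end of Smad2 had 57 reads and 8.97-fold (−log10 q 35.2) at chromosome 18, 76222172 to 76222915.

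The inhibitory Smads, which BMP and TGF-beta signals themselves induce, had many entries, of which many were weak at Smad6. Smad6 had 29 entries, 14 in its span and 15 outside it, and Smad7 had 18 over a territory of 86.4 kb. Per 100 kb, Smad7 had 20.8 and Smad6 13.5 entries, densities that 9.05% and 19.8% of all genes reached. In the more significant 50% of entries Smad6 had 9 and Smad7 10. At its end Smad7 had 134 reads and 5.93-fold (−log10 q 56.2) at chromosome 18, 75366405 to 75367929, in an interval of 1525 bp that holds 4 summits of 95 to 134 reads. Smad6 had 98 reads and 4.80-fold (−log10 q 33.7) at its start, at chromosome 9, 64021804 to 64023287, and 96 reads 955 bp beyond its end. Away from the ends, Smad7 had 96 reads and 8.69-fold at chromosome 18, 75342284 to 75343498, 24.4 kb from the gene, and 99 reads 8.4 kb inside it. The highest fold around Smad6 was 7.37, at 63 reads 12.7 kb inside the gene. Smad3 and Smad6 lie 195 kb apart on chromosome 9.

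**Figure D3:**
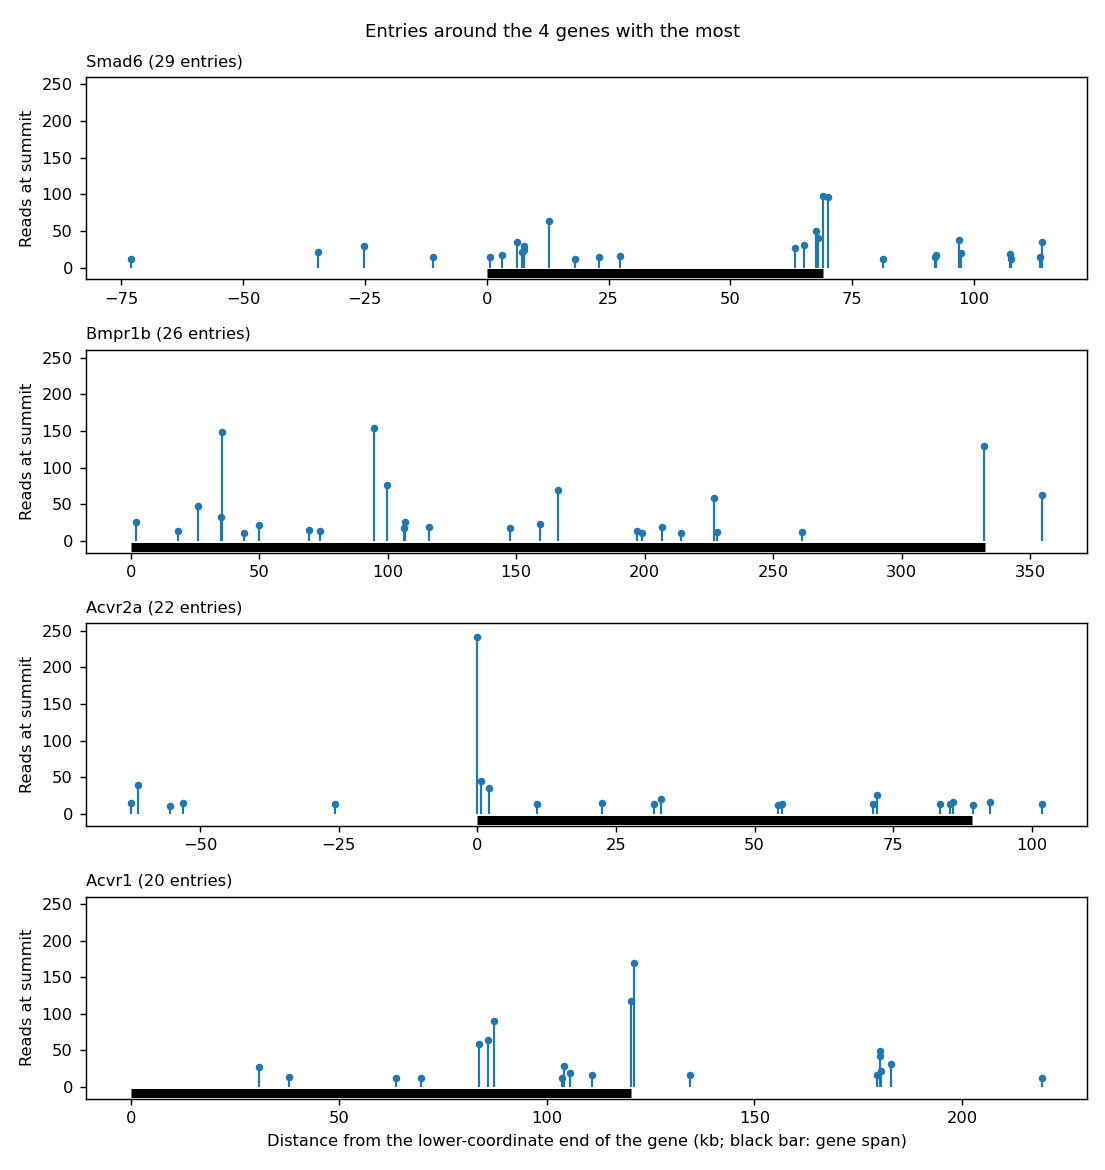
Reads at each summit (y axis) against distance from the lower-coordinate end of the gene in kb (x axis) for the 4 genes with most entries; each stem is 1 entry and the black bar is the gene span. Acvr2a has 1 summit of 241 reads and otherwise at most 45, whereas Bmpr1b has 3 summits of 129 to 154 reads along its span.

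At the 26 ligand genes the share with a gene-end entry, 17 of 26, was close to the 65.5% of all genes. The highest of each had a median of 86 reads, and 5 of these 17 exceeded the all-gene median of 97, as 49.6% of all genes with such an entry did. The 9 without were Tgfb2, Bmp4, Bmp5, Bmp10, Bmp15, Gdf2, Gdf5, Inha and Inhba, and Chrd was the only other member without one. Among the 18 ligand genes in the promoter table, 12 had a start entry, a share close to the 66.5% of all genes. Tgfb2, Inha, Inhba and Chrd had a start entry although none lay near an end of their spans, because their annotated starts lie 532 to 7595 bp into the span.

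Among TGF-beta ligands, Tgfb2 had 18 entries and Tgfb1 10, while Tgfb3 had 3. The pair of summits of Tgfb2 at 95 reads each, with up to 8.07-fold, lay 493 and 622 bp downstream of its start at chromosome 1, 186705132 to 186706113. Tgfb3 had 76 reads and 6.15-fold (−log10 q 33.7) at chromosome 12, 86079255 to 86079775. Tgfb1 had only 48 reads and 3.45-fold (−log10 q 11.2) at its start, in an interval at chromosome 7, 25686760 to 25687451 that also lies at an end of its neighbour B9d2. With 46.9 entries per 100 kb over a territory of 21.3 kb, Tgfb1 was the densest member, and 1.32% of all genes were as dense. Its 10 entries were summits of 5 intervals, and 4 of the entries were in the more significant 50%. None of its entries exceeded 52 reads.

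BMP ligands of the dorsal neural tube varied at their ends. Bmp7 had 18 entries, 87 reads and 5.59-fold at chromosome 2, 172939853 to 172940875, and 74 reads 5.0 kb inside the gene. Bmp2 had 12, with the most reads of any BMP ligand end, 124 reads and 7.64-fold (−log10 q 64.5) at chromosome 2, 133551941 to 133553442, and a distal entry of 51 reads and 7.20-fold 52.0 kb away. Bmp4 had 13 entries, yet both of its ends lacked one. Its 2 highest had 61 and 55 reads inside the gene, about 3.2 and 3.3 kb from the nearer end, and the entry nearest to its annotated start lay 1684 bp downstream with 34 reads. Bmp6 had 88 reads and 7.29-fold (−log10 q 44.8) at chromosome 13, 38344916 to 38346669, 656 bp upstream of its start. Bmp5 had 10 entries, none within 1 kb of its start. The strongest had 40 reads and 6.44-fold, 55.6 kb inside the gene.

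Bmp3, which opposes other BMPs, had 3 entries and 59 reads at its end. Bmp8a and Bmp8b are close paralogs 187 kb apart on chromosome 4, and how reads that match both were treated is not given in the sources used here. Bmp8a had 117 reads and 8.51-fold (−log10 q 66.1) at chromosome 4, 123342133 to 123343520, and Bmp8b 29 reads and 3.83-fold. The 89 reads of the highest Bmp8b entry lay 22.3 kb outside the gene. Bmp10 and Bmp15, known for roles in the heart and the oocyte, had 1 and 2 entries, of at most 16 and 19 reads, each at least 15.3 kb from the gene. Bmp1, the protease, had 91 reads and 7.51-fold (−log10 q 47.3) at chromosome 14, 70519765 to 70520984, at an end that lies within 1 kb of an end of Sftpc.

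Among GDF ligands, Gdf11, which acts in axial patterning and in the spinal cord, had 159 reads and 6.5-fold (−log10 q 72) at its start at chromosome 10, 128891148 to 128892022. This was the most reads of any ligand end, although its fold was below the all-gene median of 8.16, over a background of 23.6 reads. Gdf15, a stress-induced ligand, had 136 reads and 9.16-fold (−log10 q 80.5) at chromosome 8, 70629516 to 70630485, but at its far end. No start entry was found for it. Gdf9, an oocyte ligand, had 103 reads and 7.33-fold (−log10 q 52.2) at chromosome 11, 53430341 to 53431604, at an end shared with Uqcrq, and Gdf1 had 86 reads at a start shared with Cers1, with which its span overlaps. Without entries that lie at an end of another gene, Gdf1 and Gdf9 lost theirs and 38 of 50 members kept one, against 52.9% of all genes.

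Gdf7, the roof plate ligand, had 54 reads and 3.68-fold 15 bp upstream of its start, 67 reads and 5.55-fold at its far end, inside the overlapping gene Ldah, and 68 reads 4.7 kb upstream of its start. Gdf6 had 16 entries, the most of the GDF genes. Its highest, 98 reads and 9.79-fold (−log10 q 61.8), lay 2.4 kb from its higher-coordinate end at chromosome 4, 9859060 to 9860328. A distal entry of 77 reads and 9.31-fold (−log10 q 47.6) lay 73.6 kb away at chromosome 4, 9770374 to 9771569. Its own end had 63 reads. Gdf10 had 81 reads at its start. Its neighbour Gdf2, a circulating ligand whose gene starts 4.5 kb beyond it, had a single entry of 23 reads. Gdf3 had 1 entry of 39 reads, and Gdf5, a ligand of joint formation, had 2 of 11 and 21 reads.

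Inhbb, the activin B subunit, had 12 entries, 86 reads and 5.69-fold (−log10 q 35.2) at chromosome 1, 119420493 to 119422271, and a distal entry of 98 reads and 10.1-fold (−log10 q 63), 26.6 kb away at chromosome 1, 119388629 to 119389424. Inhba, the activin A subunit, had 53 reads and 5.64-fold 103 bp downstream of its start. Inha, the inhibin alpha subunit, had a single entry of 32 reads and 2.62-fold.

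All 3 antagonists of ligands had sites near their starts or ends. At Nog and Fst the highest gene-end entry had a fold below the all-gene median of 8.16 for such entries. Chrd had no gene-end entry, and its values are those of a start entry, which that median does not describe. Nog had 89 reads and 4.05-fold (−log10 q 25.3) at chromosome 11, 89301393 to 89303008, Fst had 87 reads and 4.75-fold (−log10 q 29.7) at chromosome 13, 114458279 to 114459683, and Chrd had 79 reads and 6.26-fold 200 bp downstream of its start. The background at the Nog and Fst entries was 21.2 and 17.5 reads, above the median of 10.7 over all genes. Fst had 13 entries, with 61 reads and 7.81-fold 73.6 kb away. Chrd had 7, with 40 reads and 6.44-fold 62.3 kb away. Nog had 9, of which 5 had 52 or more reads and lay within 2150 bp of its ends. Bmp2k, the kinase, had 202 reads and 10.7-fold (−log10 q 131) at its start, at chromosome 5, 96997014 to 96998474, and 15 entries.

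**Figure D4:**
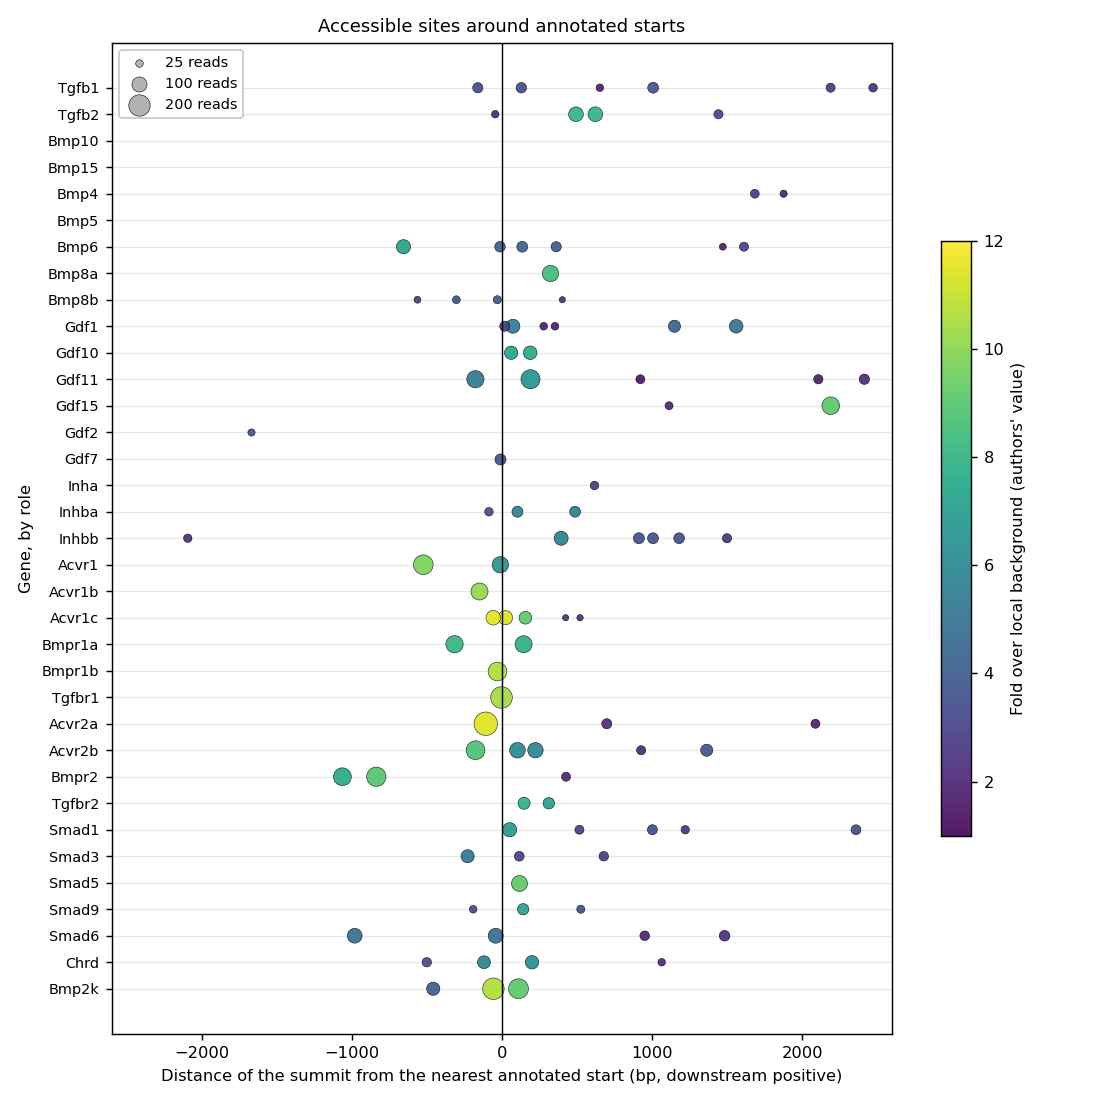
Position of each entry within 2.5 kb of the nearest annotated start (x axis, bp, downstream positive) for the 35 genes in the promoter table; point area is the reads at the summit and colour the authors' fold. Receptors carry large points close to the start, whereas within this range Bmp5, Bmp10 and Bmp15 carry none and Bmp4 only points of 34 reads or fewer downstream.

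Starts with an entry were richer in CpG dinucleotides, among the members as among all genes. Taking the most upstream annotated start of each gene, 28 of 35 members had a start entry, against 11414 of all 17492 genes. The 300-base windows of these 28 members held a median of 30.5 CpG, against 4 in the 7 without. Over all 17492 genes the medians were 21 and 2. All 19 members with 25 or more CpG had a start entry, against 99.6% of all such genes. So did 7 of 8 with 10 to 24, against 94.8%, and 2 of 8 with fewer than 10, against 23.0%. The exception in the middle class was Bmp4, with 12 CpG, and the 2 members below 10 CpG with an entry were Inha and Inhba. The 7 without were Bmp4, Bmp5, Bmp10, Bmp15, Gdf2, Gdf15 and Bmpr1b. For Bmpr1b this concerns the most upstream start of the table, 187 kb into the span, while its next start had one. With any annotated start allowed, 29 of 35 members had a start entry, against 66.5% of genes. A summit in the 300-base window itself was found for 20 of 35, against 45.9% of genes.

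**Figure D5:**
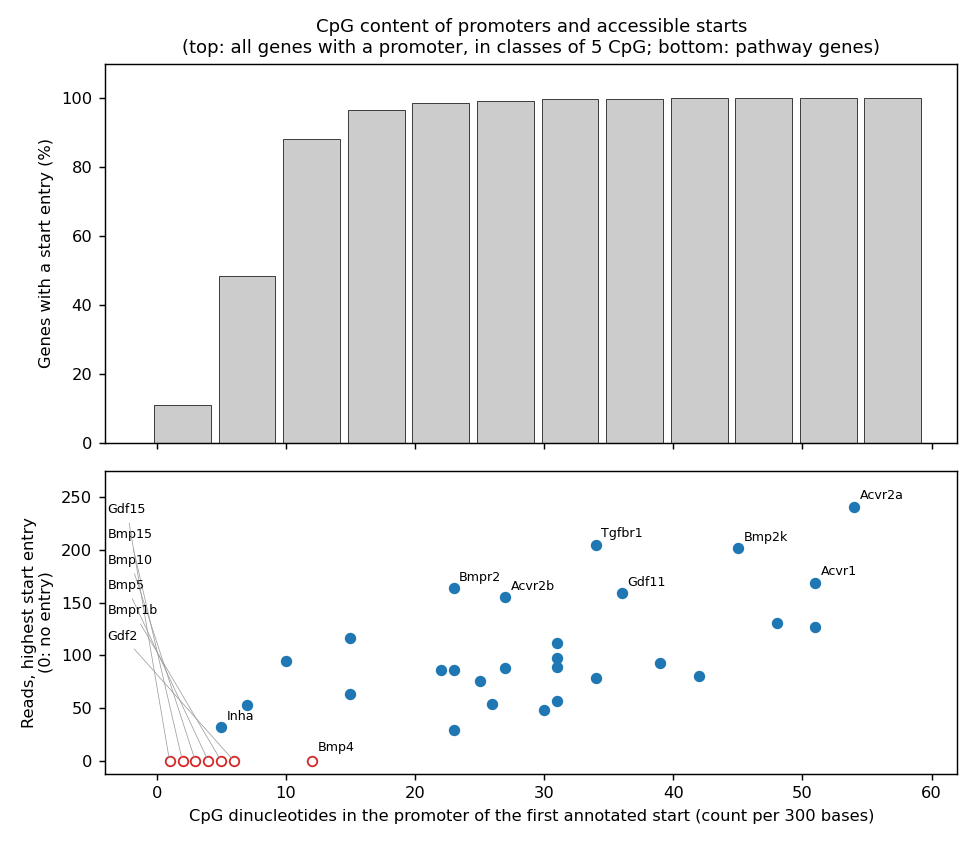
Top, share of all genes with a start entry (y axis, %) by the number of CpG dinucleotides in the 300-base promoter (x axis, classes of 5). Bottom, reads of the highest start entry of each pathway gene against the same count, with open red points at 0 for the 7 genes without one, of which 6 have 6 or fewer CpG and Bmp4 has 12.

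Smad-type words were counted in all promoter windows on both strands. The GC-rich word GGCGCC was in 11 of 43 windows of members (25.6%) and in 15.3% of 21263 windows of all genes. Among windows with a start entry it was in 11 of 34 for members and in 22.4% for all genes. GGAGCC was in 21 of 43 (48.8%) and in 34.9% of all, and with a start entry in 18 of 34 and 42.9%. The Smad box CAGACA was in 6 of 43 (14%) and in 18.9% of all, and with a start entry in 3 of 34 and 15.7%. The homeodomain core TAATTA was in 2 of 43 (4.65%) and in 4.53% of all, and the E-box CACGTG in 5 of 43 (11.6%) and 7.84% of all. The GC box GGGCGG was in 28 of 43 (65.1%) and 46.2% of all, CCAAT in 16 (37.2%) and 38.2%, and TATAAA in 6 (14%) and 12.6%. With a start entry, GGGCGG was in 27 of 34 and 65.3%. A start entry was found for 34 of 43 windows of members and 13963 of 21263 of all, and windows were not matched for CpG content. GC-rich words can overlap each other, windows of 1 gene can overlap, and a match is not a site of binding.

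Of 57 other genes of these pathways, 47 had a gene-end entry, against 65.5% of all genes. All 57 had an assigned entry, against 83.0% of all genes, with a median of 7 against 3. Their territories, with which entry numbers are correlated, were not compared with those of all genes. All 13 intracellular modulators had a gene-end entry, led in entries by Map3k7 (23), the kinase TAK1, and Ski (17), a repressor of Smads. At its end Map3k7 had 202 reads. An entry of Zfyve9, an adaptor of TGF-beta receptors, had 197 reads and 31.1-fold at chromosome 4, 108707150 to 108707583. All 10 target genes had one, with most entries at Msx1 (21) and Id4 (15). At their ends Id1 and Id2 had 141 reads each and Id3 138. Other secreted modulators had one at 14 of 18, with most entries at Ltbp1 (38), which holds latent TGF-beta, and Bmper (22). Other receptors and co-receptors had one at 5 of 9, near the all-gene share, led by the BMP co-receptors Rgma (31 entries) and Rgmb (18), while Eng, Amhr2, Hjv and Cfc1 had none at their ends. Of the other ligands, Nodal and Lefty2 had 5 entries each, none above 25 reads, and 5 of 7 had a gene-end entry, also near the all-gene share.

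Markers of the sorted cells and of others were read from the same list. Of 10 motor neuron genes 8 had a gene-end entry (not Isl2 and Prph), against 65.5% of all genes, and their median was 13 assigned entries, against 3. All 6 neural progenitor genes (median 19.5), all 5 genes of the roof plate and dorsal neural tube (median 15) and both floor plate genes had one. So did all 4 genes of neural crest and sensory cells. Blood genes had one at 1 of 5, endothelial genes at 2 of 4, mesoderm genes at 1 of 4 and epidermal genes at 0 of 3. With lists this short, 1 gene moves a share widely, and the territories of these genes were not compared with those of all genes. Gata1, Alas2 and Krt14 had neither an assigned nor a gene-end entry. Other blood genes did have strong ones: Spi1 had 128 reads and 11-fold at its end, Ptprc had 16 entries of up to 118 reads, and C1qa had an entry of 66 reads and 8.16-fold. What other cells in the sort contribute to the sites of the dorsal ligands was not tested, and accessibility is not expression.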

How the data were processed

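ATAC-seq libraries of 2 replicates (8 to 9 PCR cycles, paired 75-nt reads, per the labels' protocols) were deposited as 1 pooled, filtered peak list; whether they came from separate litters is not given. Per the submitters' processing notes, the tools were MACS2 2.2.7.1, SAMtools 1.7.2, BWA 0.7.1.7, cutadapt 0.6.2 and Trim Galore, with mm10. What each did, how the list was filtered, and the treatment of duplicates and of the Tn5 offset are not given. The list holds 138387 entries and is permissive (smallest −log10 p 2.0).

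The deposited fold is a ratio of pileup to local background. The deposited significance values are the −log10 of the p-value and of the q-value. The deposited score was 10 times the −log10 p, truncated, for 99.999% of entries. Summit offsets are in bases. Total depth is unknown. Reads were recovered by solving the Poisson tail together with the ratio of pileup to background, each plus 1. For 99.96% of entries the result lay 0.01 or less from an integer. They carry counting error. This step and the assignment were tested on simulated data.

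Genes (GRCm38.p6) and promoters came from RefSeq tables, and 35 of 50 members matched a promoter. The members and lists were chosen with earlier results of these data known. Named with position were the 3 highest gene ends per role, the highest entry of the 10 genes with most entries, and the 12 highest folds away from gene ends. Other entries were chosen after their values were seen. With 1 pooled list no test was possible. Python 3.11.15, pandas 2.3.3, numpy 2.4.6, SciPy 1.17.1 and matplotlib 3.10.9 were used.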

Additional observations from a re-analysis of the deposited data

How the results depend on the processing

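The number of members with a gene-end entry, 40 of 50, stayed at 40 when entries with q-values of 0.05 or more were dropped, in the more significant 50% of entries, with 1 entry per interval and without backgrounds of 30 reads or more. The all-gene share, 65.5% as reported, was then 63.8%, 60.4%, 64.5% and 65.2%. The count was 37 with a 500 bp window (all genes 60%) and 47 with a 2 kb window (70.5%). In 2 settings chosen after seeing the data it was 42 by interval instead of summit (67.1%) and 38 without entries at an end of another gene (52.9%). Assigned entries, 482 as reported, were 390 at q-values under 0.05, 425 within 50 kb and 355 with 1 entry per interval. They moved further with the more significant 50% of entries (231) and inside the span only (274). The median per member was then 4 and 5, and 5 with 1 entry per interval, against 2, 1 and 2 over all genes. Members with a summit in the promoter window numbered 11 of 35 with 1 entry per interval, where only its strongest summit counts, against 20 as reported. The count was 28 by overlap of the interval and 29 within 1 kb of the start. The all-gene share was 45.9% as reported and 66.5% within 1 kb of the start. It is not given for the other settings, so the fall to 11 cannot be set beside all genes. With the more significant 50% of entries, 38 of the 50 members' own counts moved by more than 1.5 times, against 30 inside the span only, 15 with 1 entry per interval, 4 within 50 kb, 3 at q-values under 0.05 and 0 without high backgrounds. Acvr2a had 3 entries in the more significant 50% (22 as reported) and Smad6 9 (29 as reported). No paired analysis was possible because the replicates were pooled and form 1 group, and no replicate could be left out.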
